A study of Mus musculus with 12 samples.

Results

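Keratins are the intermediate filament proteins of epithelial cells, and 8 keratin genes of the mouse mammary gland were followed here: Krt8, Krt18 and Krt19, which are typical of luminal cells, and Krt5, Krt14, Krt15, Krt17 and Krt6a, which are grouped here as basal. The genes were found by the gene symbol that the platform annotation gives to a probe. They are 8 of the 12913 gene symbols on the array, and each had 1 of its 17589 probes, and each probe had a value on every array. Tissue was microdissected from glands of 5-week-old mice carrying a B-actin-GFP reporter, which makes the epithelium visible. The 6 arrays of terminal end buds, the club-shaped growing tips of the ductal tree, and the 6 arrays of mature ducts behind them each carried epithelial RNA in Cy5 beside RNA of distal stroma, the fat pad that the tree has not yet reached, in Cy3. The epithelial RNA holds luminal and basal cells together, and it was not shown to be free of stromal cells. No label tells whether the arrays of a group stand for different animals. The p-values below therefore rest on array-to-array spread alone, part or all of which may be technical.

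A keratin filament is built from pairs of 1 type I and 1 type II keratin, so neither type makes filaments alone. Among the type II keratins, Krt8 pairs mainly with the type I keratins Krt18 and Krt19 in simple and luminal epithelium, Krt5 pairs with Krt14 or Krt15 in basal cells, and Krt6a pairs with Krt16 or Krt17 in skin appendages, in wounds and in some ductal epithelia. In the mammary duct an inner luminal layer is surrounded by a basal layer of contractile myoepithelial cells, and in the terminal end bud a mass of body cells is covered by a single outer layer of cap cells. The set of keratins in a sample of mammary epithelium is therefore commonly used to follow these layers.

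The type I and type II genes lie in separate clusters of the mouse genome, with 1 exception. In the RefSeq annotation of GRCm38.p6, Krt6a, Krt5, Krt8 and Krt18 lie in this order on chromosome 15, and Krt15, Krt19, Krt14 and Krt17 lie in this order on chromosome 11. Krt18 is the exception, a type I gene beside its type II partner Krt8, and the partners are transcribed away from each other. RefSeq promoter windows, which run from 250 bases before to 50 bases after an annotated start, were available for 4 of the 8 genes. The windows of the partners Krt8 and Krt18 are shown because both genes stood among the highest ratios of the study, and that of Krt5 is shown beside them as a basal type II gene. The Krt14 window starts 1480 bases inside the annotated gene and is not shown. Capitals mark matches, on either strand, to the TATA box TATAAA, the GC box GGGCGG, the AP-2 motif GCCNNNGGC and the AP-1 motif TGANTCA.
Krt8, chr15:102004293-102004592, minus strand: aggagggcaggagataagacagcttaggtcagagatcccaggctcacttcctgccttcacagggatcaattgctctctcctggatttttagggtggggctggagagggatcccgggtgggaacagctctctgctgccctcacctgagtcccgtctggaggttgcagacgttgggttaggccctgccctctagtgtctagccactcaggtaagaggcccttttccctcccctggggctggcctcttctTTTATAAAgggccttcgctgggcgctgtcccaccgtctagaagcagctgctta
Krt18, chr15:102027966-102028265, plus strand: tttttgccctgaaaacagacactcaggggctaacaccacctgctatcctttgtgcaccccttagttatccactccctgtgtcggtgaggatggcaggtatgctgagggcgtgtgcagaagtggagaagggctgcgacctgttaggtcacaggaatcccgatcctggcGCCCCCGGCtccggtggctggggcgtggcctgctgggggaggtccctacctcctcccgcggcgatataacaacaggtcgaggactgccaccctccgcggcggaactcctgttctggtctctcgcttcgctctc
Krt5, chr15:101712856-101713155, minus strand: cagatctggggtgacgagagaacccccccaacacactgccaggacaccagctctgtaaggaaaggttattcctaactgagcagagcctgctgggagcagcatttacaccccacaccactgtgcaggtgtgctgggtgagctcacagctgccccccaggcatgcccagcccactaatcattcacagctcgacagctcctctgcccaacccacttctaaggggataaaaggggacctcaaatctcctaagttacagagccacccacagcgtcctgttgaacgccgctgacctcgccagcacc
The Krt8 window held 2 overlapping matches to the TATA box, 1 on each strand. They begin at -3 and -1 from the annotated start and so run across it. The Krt18 window held 1 match to the AP-2 motif, at -83. The Krt5 window held none of these 4 strings. Over all 32851 RefSeq windows of this length, 13.6% held TATAAA, 35.7% GGGCGG, 16.6% GCCNNNGGC and 7.81% TGANTCA. A match describes the letters only, and the partners shared none of the 4 strings.

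Every value below is a log2 ratio of epithelium over stroma for 1 probe, and differences between the structures are differences of these ratios. The base of the logarithm is taken as 2 although no label states it, and a natural logarithm would change folds but no sign and no p-value. Stroma was only ever the second channel, so it counts as 1 control sample without a spread of its own, and no label gives a dye swap. Probe intensities were not used here, so how far the stromal signal of a keratin lay above background is unknown, and a ratio says nothing of the amount of 1 keratin relative to another. Arrays were less alike in ducts, where the mean correlation of an array with the others of its group was between 0.63 and 0.742 over all probes, than in terminal end buds, where it was between 0.703 and 0.833. The lowest of these values belonged to terminal end bud replicate 3 and duct replicate 4, and without both arrays the same number of the 8 keratins passed in each comparison. The threshold is an adjusted p of 0.05 from limma, adjusted by Benjamini-Hochberg over all probes.

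All 8 keratins were higher in terminal end buds than in distal stroma, and 7 of the 8 were higher in ducts than in distal stroma. Over all probes, 43.6% passed for terminal end buds against stroma, 23.2% with higher and 20.4% with lower values, and 28.2% passed for ducts against stroma, 16.0% with higher and 12.2% with lower values. The median ratio of the 8 keratins was 2.23 in terminal end buds and 2.65 in ducts, beside medians of 0.0147 and 0.0153 over all probes. The 3 luminal keratins had a median ratio of 5.41 in terminal end buds and 4.96 in ducts, and the 5 basal keratins had a median ratio of 1.5 in terminal end buds and 2.32 in ducts. In these dissected samples, fewer cells of a type and less RNA per cell cannot be told apart.

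**Figure D1:**
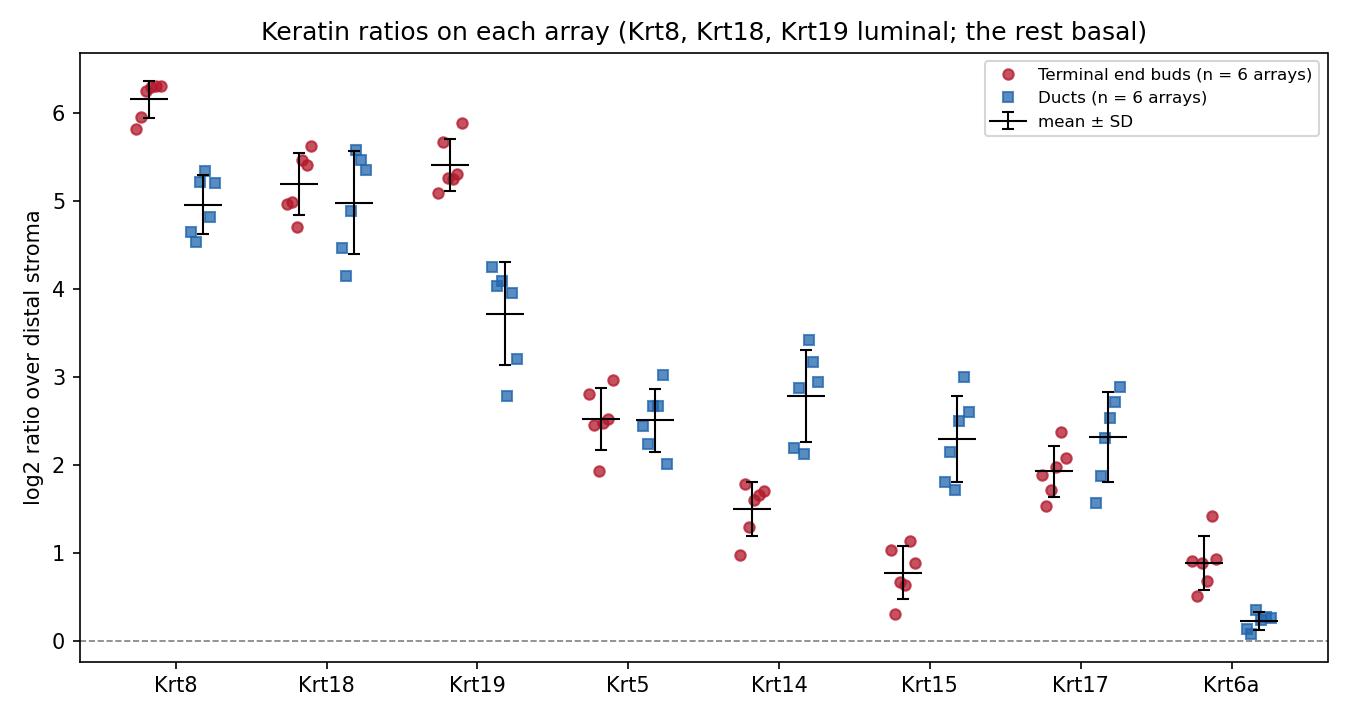
Log2 ratio over distal stroma (vertical axis) of each keratin on each array, terminal end buds as circles left of ducts as squares, with the mean and SD of 6 arrays as black bars. Krt8, Krt18 and Krt19 lie above 2.7 on every array, Krt14 and Krt15 lie higher in ducts than in terminal end buds, and Krt6a lies near 0 in ducts.

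Krt8, the type II keratin of luminal cells, had the highest mean ratio of all 17589 probes in terminal end buds. Its ratio had a lowest value of 5.82, a median of 6.27 and a highest value of 6.31 on the terminal end bud arrays, against 4.53, 5.01 and 5.34 on the duct arrays. Every terminal end bud array lay above every duct array. The means were 6.16 ± 0.21 in terminal end buds and 4.96 ± 0.34 in ducts (SD, n = 6 each), where Krt8 ranked 5th among all probes. Krt8 was thus higher in terminal end buds than in ducts by 1.20 (SE 0.15, 95% interval 0.88 to 1.52, limma adjusted p = 9.92e-05), a fold of 2.29 at base 2. The difference was 1.30 on slides up to 193 (2 arrays per group) and 1.15 on slides from 196 on (4 arrays per group), and the call held in both. When the arrays were scaled to a common median absolute deviation, the difference was 0.13 with adjusted p = 0.833.

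Krt19, a type I keratin of luminal cells that lacks most of the tail domain, differed most between the structures among the 3 luminal keratins. By array, the ratio had a lowest value of 5.09, a median of 5.28 and a highest value of 5.88 in terminal end buds, against 2.78, 3.997 and 4.25 in ducts. The groups did not overlap, and duct replicates 4 and 6, at 2.78 and 3.20, lay below the other 4 duct arrays, at 3.96 to 4.25. The means were 5.41 ± 0.30 in terminal end buds, the second highest of all probes, and 3.72 ± 0.59 in ducts (SD, n = 6 each), the 13th highest. The difference of 1.69 (SE 0.24, 95% interval 1.19 to 2.20, limma adjusted p = 0.00022) was the 15th largest toward terminal end buds over all probes, a fold of 3.23 at base 2. It was 1.24 on slides up to 193 and 1.92 on slides from 196 on, and 0.77 with adjusted p = 0.326 under the common median absolute deviation.

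Krt18, the main type I partner of Krt8, did not pass between the structures. Its ratio had a lowest value of 4.70, a median of 5.20 and a highest value of 5.62 in terminal end buds, against 4.15, 5.12 and 5.58 in ducts. The ranges overlapped over most of their length, and the lowest duct values were those of replicates 1 and 2, at 4.46 and 4.15. Krt18 averaged 5.19 ± 0.36 in terminal end buds and 4.98 ± 0.58 in ducts (SD, n = 6 each), the fifth and the fourth highest means over all probes. The difference was 0.21 (SE 0.24, limma adjusted p = 0.625), and its 95% interval of -0.31 to 0.73 does not reach the difference of either Krt8 or Krt19. The interval does not show that Krt18 was equal in the structures, and the difference was 0.68 on slides up to 193, -0.02 on slides from 196 on and -0.78 under the common median absolute deviation, with no call in any of them.

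Krt14, the type I keratin of basal and myoepithelial cells, was lower in terminal end buds than in ducts. On single arrays the ratio had a lowest value of 0.97, a median of 1.63 and a highest value of 1.78 in terminal end buds, against 2.12, 2.91 and 3.42 in ducts. All terminal end bud arrays lay below all duct arrays. The means were 1.502 ± 0.31 and 2.79 ± 0.52 (SD, n = 6 each) in terminal end buds and ducts, where Krt14 ranked 248th and 29th over all probes. The difference was -1.28 (SE 0.22, 95% interval -1.75 to -0.81, limma adjusted p = 0.000942), a fold of 2.43 at base 2. It was -1.35 on slides from 196 on and -1.16 on slides up to 193, where it did not pass (adjusted p = 0.0982).

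Krt15, a type I keratin known from basal keratinocytes and the hair follicle bulge of mouse skin, differed in the same direction as Krt14. Its ratio had a lowest value of 0.30, a median of 0.78 and a highest value of 1.13 in terminal end buds, against 1.72, 2.32 and 2.997 in ducts. The groups did not overlap, and the mean ratio ranked 1008th over all probes in terminal end buds and 52nd in ducts. The means were 0.78 ± 0.30 in terminal end buds and 2.30 ± 0.49 in ducts (SD, n = 6 each). With a difference of -1.52 (SE 0.21, 95% interval -1.97 to -1.07, limma adjusted p = 0.000198), a fold of 2.87 at base 2, Krt15 had the 55th lowest difference over all probes. It was -1.31 on slides up to 193 and -1.63 on slides from 196 on, with a call in both. Krt15 and Krt19 are neighbouring genes on chromosome 11, and their differences had opposite signs.

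Krt5, the type II partner of Krt14 and Krt15, did not pass between the structures. By array, the ratio had a lowest value of 1.94, a median of 2.50 and a highest value of 2.96 in terminal end buds, against 2.01, 2.56 and 3.02 in ducts, and the ranges nearly coincided. The means were 2.53 ± 0.35 and 2.51 ± 0.36 (SD, n = 6 each) in terminal end buds and ducts. The difference was 0.016 (SE 0.18, limma adjusted p = 0.967), with a 95% interval of -0.38 to 0.41 that does not reach the differences of Krt14 and Krt15. Under the common median absolute deviation it was -0.48 (adjusted p = 0.27). Krt5 thus had the highest mean ratio of the 5 basal keratins in terminal end buds, and Krt14 had the highest mean ratio of the 5 in ducts.

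Krt17, a type I keratin of skin appendages that is also found in basal cells of glands, lay between these patterns. Its ratio had a lowest value of 1.53, a median of 1.93 and a highest value of 2.38 in terminal end buds, against 1.57, 2.42 and 2.89 in ducts. The ranges overlapped, and the 2 lowest duct values were those of replicates 1 and 2. The means were 1.93 ± 0.29 in terminal end buds and 2.32 ± 0.51 in ducts (SD, n = 6 each), and the difference of -0.39 did not pass (SE 0.21, 95% interval -0.84 to 0.064, limma adjusted p = 0.25). This value depended on the processing and on the slides: it was -0.68 under quantile normalization (adjusted p = 0.0172), -0.79 under the common median absolute deviation (adjusted p = 0.0336), -0.58 on slides from 196 on (adjusted p = 0.0478) and -0.015 on slides up to 193 (adjusted p = 0.981).

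Krt6a, a type II keratin that has been described in mouse terminal end buds, was the lowest of the 8 in ducts and the only one that did not pass against stroma there. On single arrays the ratio had a lowest value of 0.51, a median of 0.90 and a highest value of 1.42 in terminal end buds, against 0.075, 0.25 and 0.35 in ducts. The groups did not overlap, and all duct values were above 0. The means were 0.89 ± 0.31 in terminal end buds (limma adjusted p = 1.38e-06 against stroma) and 0.22 ± 0.10 in ducts (SD, n = 6 each; limma adjusted p = 0.0764 against stroma). The duct ratio passed when ducts were fitted without terminal end buds (adjusted p = 0.0143), under quantile normalization (0.0309), with array weights (0.0473), and without terminal end bud replicate 2 (0.0488) or 5 (0.0185), which enter the shared spread. Between the structures Krt6a was higher in terminal end buds by 0.66 (SE 0.13, 95% interval 0.39 to 0.93, limma adjusted p = 0.00192), a fold of 1.58 at base 2. It was 0.60 on slides up to 193, where it did not pass (adjusted p = 0.0992), and 0.69 on slides from 196 on.

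Between the structures, 3 of the 8 keratins were therefore higher in terminal end buds than in ducts (Krt8, Krt19 and Krt6a), 2 were lower (Krt14 and Krt15) and 3 did not pass (Krt18, Krt5 and Krt17). Over all probes, 18.7% passed in this comparison, 8.32% with higher and 10.4% with lower values. The array values of terminal end buds and ducts did not overlap for 5 of the 8 keratins, as for 10.2% of all probes (4.42% higher and 5.79% lower in terminal end buds). Under the common median absolute deviation the split was 1 higher and 3 lower. Array spreads differed between the structures, with median absolute deviations of 0.262 to 0.353 on terminal end bud arrays and 0.196 to 0.297 on duct arrays.

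**Figure D2:**
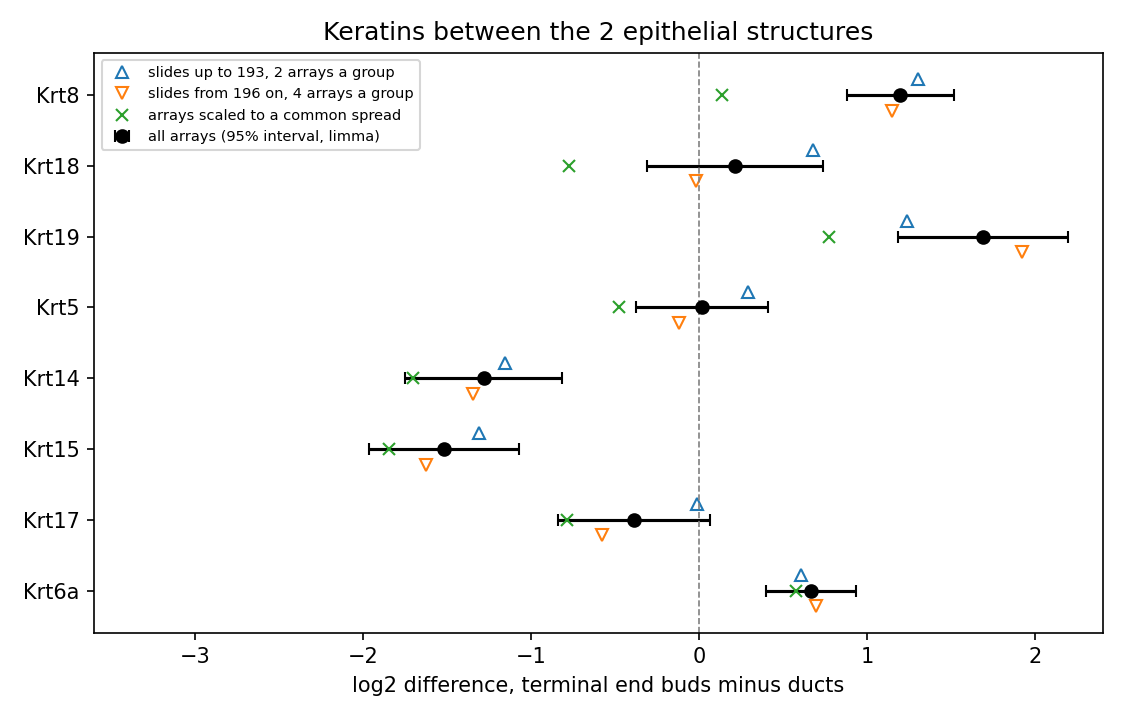
Difference of the log2 ratios, terminal end buds minus ducts (horizontal axis), for each keratin. Black points and bars give the limma estimate with its 95% interval over all 12 arrays, triangles the values on earlier and later slides, and crosses the values after scaling to a common spread, which lie at 0.13 for Krt8 and 0.77 for Krt19.

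Gaps between a type II and a type I keratin were taken within each array. The Krt8 ratio exceeded the Krt18 ratio by 0.68 to 1.55 in terminal end buds, against -0.65 to 0.39 in ducts. The Krt5 ratio exceeded the Krt14 ratio by 0.64 to 1.83 in terminal end buds, against -0.94 to 0.55 in ducts, and the Krt15 ratio by 1.27 to 2.15 in terminal end buds, against -0.59 to 0.95 in ducts. In each of these 3 pairs the ranges of the structures did not overlap. The Krt6a ratio lay below the Krt17 ratio on all 12 arrays. Its gap was -1.30 to -0.83 in terminal end buds and -2.63 to -1.43 in ducts, and these ranges did not overlap either. The gap of Krt8 to Krt19 was 0.75 ± 0.32 in terminal end buds and 1.24 ± 0.87 in ducts (SD, n = 6 each), and its ranges overlapped. Each gap holds a keratin that passed between the structures on its own, and the share of other gene pairs that separate was not computed. These gaps compare ratios over stroma and were not tested.

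The mean ratio of the 3 luminal keratins exceeded that of the 5 basal keratins on all 12 arrays. The gap was 4.06 ± 0.20 in terminal end buds, with values from 3.77 to 4.23, and 2.53 ± 0.26 in ducts, with values from 2.29 to 2.90 (SD, n = 6 each). The luminal mean was 5.59 ± 0.23 in terminal end buds and 4.55 ± 0.19 in ducts. The basal mean was 1.52 ± 0.21 in terminal end buds and 2.03 ± 0.31 in ducts. Scaling to a common median absolute deviation left gaps of 3.75 ± 0.41 in terminal end buds and 2.85 ± 0.61 in ducts. The luminal means were then 5.16 in terminal end buds and 5.11 in ducts. The means hide differences within each class, since Krt18 among the luminal and Krt5 among the basal keratins did not pass between the structures and Krt6a differed in the direction of Krt8 and Krt19.

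**Figure D3:**
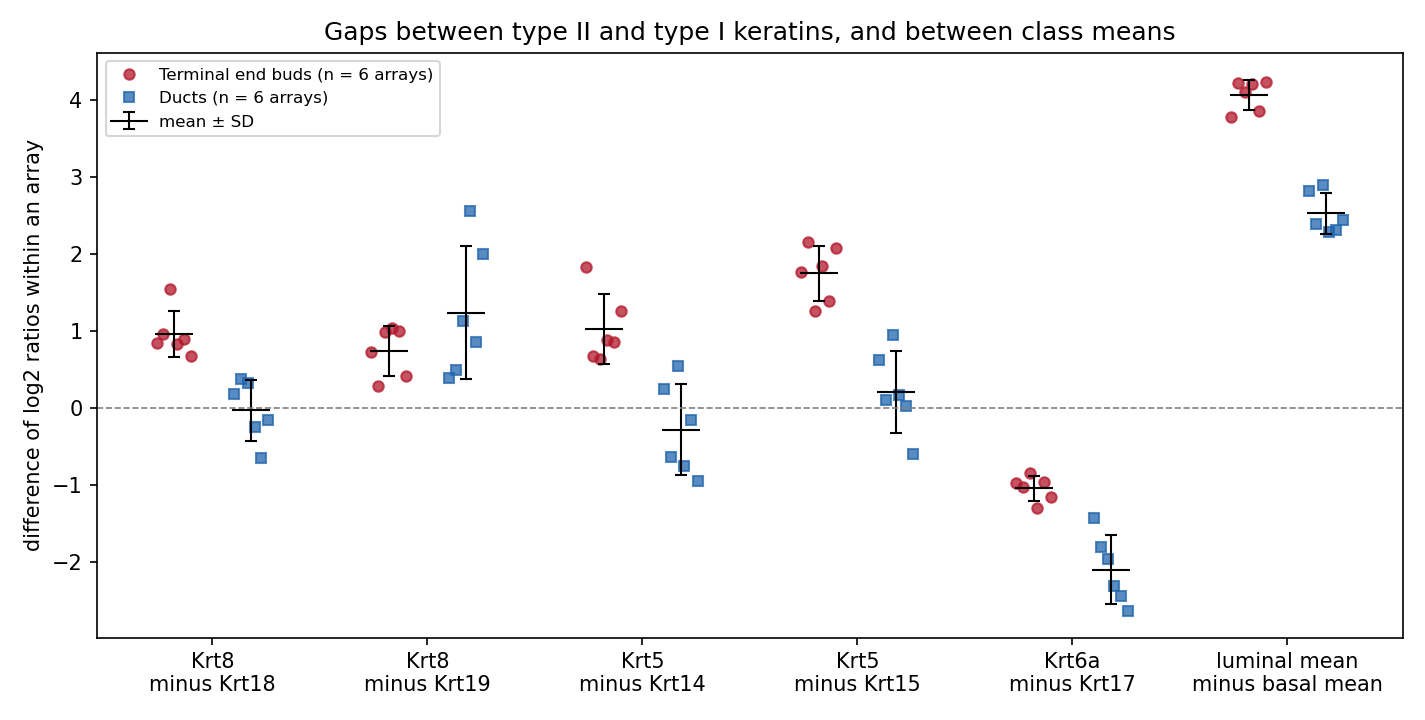
Difference of log2 ratios within each array (vertical axis) for 5 pairs of a type II and a type I keratin and for the class means, terminal end buds as circles left of ducts as squares, with mean and SD of 6 arrays as black bars. The gap of the class means lies at 3.77 to 4.23 in terminal end buds and at 2.29 to 2.90 in ducts.

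The array held 26 further keratin symbols, most of them with ratios near 0. Over all probes, 23.2% were higher and 20.4% lower than stroma in terminal end buds, and 16.0% and 12.2% in ducts. Of the 26, 4 were higher than stroma in terminal end buds, 3 were lower and 19 did not pass. In ducts 3 of the 26 were higher, 2 were lower and 21 did not pass. Krt7 and Krt23, keratins of simple and glandular epithelium, stood highest among them in terminal end buds, and Krt7 and Krt71 in ducts. Krt7 averaged 3.28 in terminal end buds, with values of 2.04 to 4.13, and 2.60 in ducts, with values of 1.73 to 3.12. Krt23 averaged 1.78 in terminal end buds and 1.13 in ducts, and neither gene passed between the structures. Krt71, a keratin of the inner root sheath of hair, averaged 0.44 in terminal end buds and 1.16 in ducts and was lower in terminal end buds by 0.72 (limma adjusted p = 0.0135). The only other further keratin that passed between the structures was the hair keratin Krt33a, which was lower in terminal end buds by 0.31 (adjusted p = 0.0461).

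**Figure D4:**
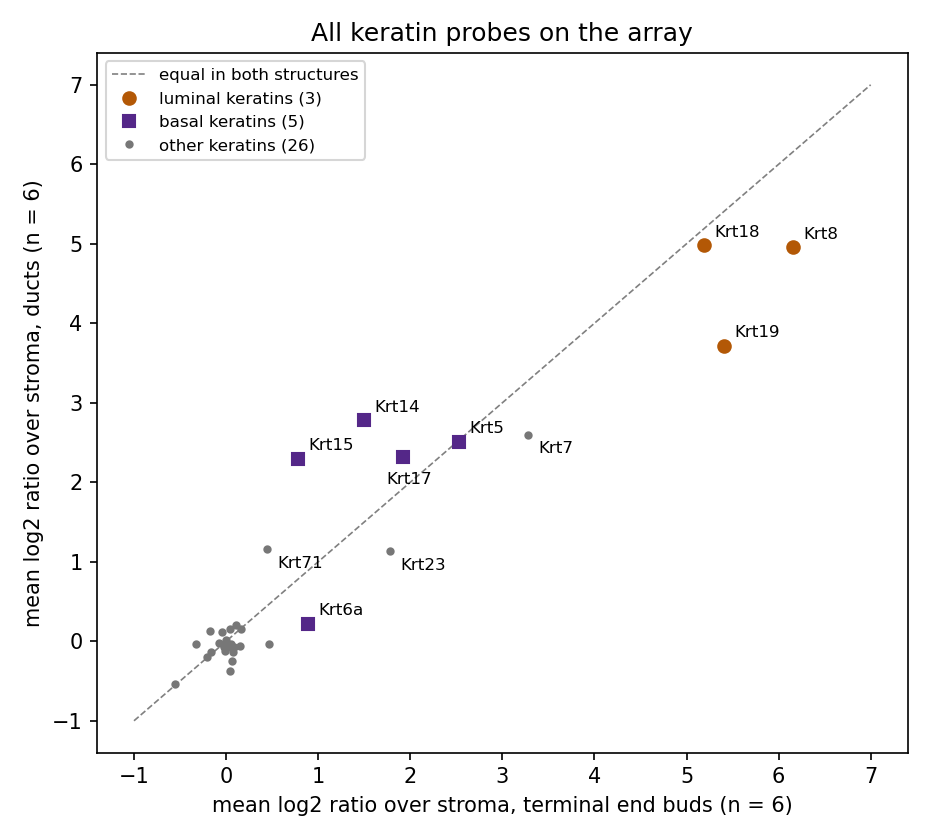
Mean log2 ratio over stroma in terminal end buds (horizontal axis) and in ducts (vertical axis) of all keratin probes, each mean over 6 arrays, with luminal keratins as circles, basal keratins as squares and the 26 others as dots. Krt8 and Krt19 lie below the line of equal ratios, Krt14 and Krt15 above it, and most other keratins near 0.

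Among keratins of stratified skin and hair, few ratios left 0. Of 11 measured keratins of stratified epithelium, 1 was higher and 2 lower in terminal end buds, and 0 were higher and 1 lower in ducts. Krt4 was the higher one at 0.47, and Krt36, usually counted among the hair keratins, at -0.33 and Krt10 at -0.16 were the lower ones in terminal end buds. Krt10 at -0.14 was the lower one in ducts. Of 10 hair and inner root sheath keratins, 1 was higher and 1 lower in each structure, Krt71 and Krt34. Of 14 measured markers of skin and hair, a list that shares several of these keratins, 3 lay higher and 1 lower in terminal end buds and 1 was higher and 1 lower in ducts. The array medians of that list lay between 0.022 and 0.118 in terminal end buds and between -0.014 and 0.112 in ducts. A ratio near 0 does not say whether a gene was expressed in either tissue.

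A broad list of keratin linkers, regulators and associated genes had 17 measured members. It includes Krtcap2, Krtcap3 and Cast, whose link to keratin filaments was not checked here. Of the 17, 13 passed above stroma and 3 below it in terminal end buds, and 11 above and 0 below it in ducts. Between the structures, 7 lay higher, Krtcap2 among them, and 2 lower in terminal end buds, beside 8.32% and 10.4% of all probes. The median difference of the list was 0.308 beside 0.000333 over all probes. Lad1, a protein of the basement membrane zone, was higher in terminal end buds by 1.21 (adjusted p = 0.00996). Jup, the plakoglobin of desmosomes and adherens junctions, was higher by 1.01 (adjusted p = 0.0147), and the desmosomal plakophilin Pkp1 by 0.94 (adjusted p = 0.000212). Pnn, at -0.86, and the calpain inhibitor Cast, at -0.39, were lower.

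Of 14 measured other intermediate filament genes, 6 passed above stroma and 1 below it in terminal end buds, and 2 above and 1 below it in ducts. Vim, the filament protein of mesenchymal and some basal cells, had ratios of 0.75 in terminal end buds and 0.71 in ducts and did not pass between them (difference 0.049, limma adjusted p = 0.922). The muscle filament gene Des was at -1.20 in terminal end buds and -0.78 in ducts. Nes, the nestin gene, was at 1.23 in terminal end buds and 0.29 in ducts and was higher in terminal end buds by 0.95 (adjusted p = 0.00193). The lamin genes Lmna, by 0.44, and Lmnb2, by 0.43, were the other 2 of this list that passed between the structures. Over all probes, 18.7% passed in this comparison.

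A list of 24 measured regulators mixed epithelial and general transcription factors, with the receptors Notch1 and Notch3 counted among them. Of the 24, 19 passed above stroma and 3 below it in terminal end buds. In ducts 13 passed above stroma and 1 below it. The highest were Gata3 at 3.75, Foxa1 at 2.81 and Elf5 at 2.18 in terminal end buds, and Gata3 at 3.37, Elf5 at 2.73 and Foxa1 at 2.27 in ducts, all factors of luminal cells. Between the structures 3 of the 24 lay higher and 3 lower in terminal end buds, beside 8.32% higher and 10.4% lower over all probes. Klf5 was higher by 1.61 (SE 0.19, limma adjusted p = 7.32e-05), with means of 1.77 in terminal end buds and 0.16 in ducts. It had 2 probes, of which 1 was read. The retinoic acid receptor genes Rara, by 0.52, and Rarg, by 0.44, were also higher. Sp3, at -0.96, Nr3c1, the glucocorticoid receptor, at -0.87, and Klf4, at -0.79, were lower. These counts describe the genes' own transcripts and no link to the keratins was tested.

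Lineage and tissue markers were set beside the keratins. Of 20 measured luminal markers, 17 passed above stroma and 0 below it in terminal end buds. In ducts 18 passed above stroma and 0 below it. Between the structures 3 lay higher and 2 lower in terminal end buds, beside 8.32% higher and 10.4% lower over all probes. Of 20 measured basal and myoepithelial markers, 11 passed above stroma and 3 below it in terminal end buds. In ducts 14 passed above stroma and 0 below it. Between the structures 2 lay higher in terminal end buds, the contractile gene Actg2 by 1.94 and Cdh3 by 0.36, and 7 lay lower. Those 7 were the contractile genes Myh11, Mylk, Tagln and Cnn1, and Cav1, Sparc and Procr. The last 3 were also the ones below stroma in terminal end buds. Acta2, also contractile, differed by -0.64 between the structures and did not pass (limma adjusted p = 0.116). The array medians of the basal list lay between 0.316 and 0.625 in terminal end buds and between 0.448 and 0.982 in ducts, and those of the luminal list between 1.81 and 2.56 in terminal end buds and between 1.79 and 2.48 in ducts. Markers of stroma also moved between the structures: 6 of 10 adipocyte, 5 of 8 brown adipocyte and 8 of 9 endothelial markers were lower in terminal end buds and none was higher. Of 12 fibroblast markers, 2 lay higher and 3 lower in terminal end buds. Against distal stroma, 5 of these 12 passed above and 1 below in terminal end buds, and 7 above and 0 below in ducts. Of 5 blood and immune markers none passed between the structures. Of 8 muscle and nerve markers 1 was higher in terminal end buds and 0 were lower. The higher one was Sox10, which stood above stroma at 2.55 in terminal end buds and 1.85 in ducts. The nerve markers Mbp, at -0.45, and S100b, at -0.86, passed below stroma in terminal end buds. In ducts S100b, at -0.82, passed below stroma and Mbp, at -0.12, did not pass. The part of these markers in the keratin differences was not tested.

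For each keratin the 3 genes with the nearest ratios were sought among 14041 probes with 1 gene symbol and values on all arrays, by the root-mean-square difference over the 12 arrays. Nearest to Krt14 were Tagln, the smooth muscle protein transgelin, at 0.36, Tgfb3 at 0.42 and Mfge8 at 0.48. Nearest to Krt15 were Cnn1, the smooth muscle protein calponin, at 0.48, Cxcl14 at 0.496 and Fgg at 0.54. Tagln averaged 1.44 in terminal end buds and 2.72 in ducts, and Cnn1 averaged 0.57 in terminal end buds and 2.35 in ducts. The genes nearest to Krt5 were Gon4l at 0.34, the growth factor receptor Fgfr2 at 0.48 and Lsr at 0.49, and those nearest to Krt17 were Kcnk1 at 0.35, Tgfb3 at 0.42 and Inhbb at 0.44.

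Nearest to Krt19 were Wfdc18 at 0.78, the claudin gene Cldn3 at 0.89 and Spint2 at 1.08. Wfdc18 averaged 5.27 in terminal end buds and 3.87 in ducts. Nearest to Krt18 were a probe assigned to Tada1 at 0.34, Epcam at 0.75 and Krt8 at 0.75, and nearest to Krt8 were the same Tada1 probe at 0.61, Krt18 at 0.75 and Krt19 at 1.18. The assignment of the Tada1 probe was not checked here. Krt6a had the smallest distances of the 8: Tcf3 at 0.16, Mras at 0.17 and Klf16 at 0.18. Fewer probes lie at high ratios than near 0, so the distances do not rank the keratins by likeness. These distances are descriptions of 12 arrays that fall into 2 groups.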

How the data were processed

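RNA of 6 terminal end bud samples and 6 duct samples was hybridised in Cy5 beside distal stroma in Cy3 on 2-colour arrays, per the labels. The authors deposited 1 table of log2 ratios (base taken as 2, direction from the dyes in the labels); scanner, background correction and normalization were not given in these sources. Array medians lay between 0.01 and 0.023, and values were used as deposited. Slides were numbered 190 to 203, and replicate numbers only name arrays.

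A probe was tested with values on at least 4 of 6 arrays in each group, which left out 0 of 17589. Gene names came from the platform annotation (14136 probes with 1 symbol, 12913 symbols), in which each keratin had 1 probe; a listed gene with several probes was read from 1, with most values and then the first. One limma 3.58.1 fit (R 4.3.3; lmFit, eBayes, two-sided) of 2 group means over 12 arrays tested each mean against 0 and their difference, with Benjamini-Hochberg adjustment over all probes. The fit was tested on simulated data for terminal end buds against ducts. There 56.7% of log2 changes of 0.5 passed, 89.6% of changes of 1 and 100% of changes of 2, with 5 false calls. The keratins and gene lists were chosen with earlier results of these data known. From each list of other keratins, filaments, linkers and factors, at most the 3 highest and 3 lowest genes past the threshold in a comparison, and Vim, were to be named; not all are printed. The number of arrays limits the precision.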

Additional observations from a re-analysis of the deposited data

Results flagged for a closer look

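The ratio over stroma differed between the structures, by the test of the difference itself, for 5 of the 8 keratins, beside 18.7% of all probes. The limma differences, terminal end buds minus ducts, were 1.20 for Krt8, 1.69 for Krt19, 0.66 for Krt6a, -1.28 for Krt14 and -1.52 for Krt15 on the log2 scale. Krt8 and Krt19 did not pass under the common median absolute deviation. In each of the 5, every terminal end bud array lay on the same side of every duct array, as for 10.2% of all probes. That separation comes from the same values as the test. None of the 8 keratins had an array that stood apart from the other 5 of its group by Dixon's test, among 16 groups of 6 arrays tested.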

How the results depend on the processing

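The calls against stroma held for all 8 keratins in terminal end buds under 24 alternatives. In ducts they held for 7 keratins, and Krt6a, which had not passed, passed in 5 of the 24. Between the structures 5 of 8 keratins passed, also with neighbouring slides as a block (consensus correlation 0.0722), with early or late slides as a term, with array weights, with a robust variance model, with median centring and without any 1 array. On slides up to 193 alone (chosen after seeing the data, 2 arrays per group) 3 passed, with Krt14 and Krt6a lost. On slides from 196 on, 6 passed, with Krt17 added. Under a common median absolute deviation 4 passed, with Krt8 and Krt19 lost and Krt17 added, and under quantile normalization 6 passed. The cause was not tested. Krt15 passed between the structures under all 23 alternatives run, with differences from -1.85 to -1.31. Median centring shifts both genes of a pair alike, so it could not change the nearest genes. The mean of a gene's probes was not run, since each keratin had 1 probe.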

Other observations

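Krt16, a type I keratin that pairs with Krt6a in skin, was chosen after its values were seen. It stood at -2.59 on duct replicate 4 and between -0.064 and 0.245 on the other 5 duct arrays, and between -0.111 and 0.265 on the terminal end bud arrays. It did not pass in any of the 3 comparisons with limma.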
